A study of Homo sapiens with 9 samples.

Results

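The interior of human chromosome 3 is described here for γH2AX, the phosphorylated form of the histone H2AX that marks chromatin around DNA breaks and stalled replication forks. The mark was followed by ChIP-seq, the sequencing of antibody-bound chromatin, in the leukaemia cell line K562. Wild-type (WT) cells and cells with a FANCL knockout (KO) were each treated with 5 nM PMA for 72 h or mock treated, which gave 4 groups of 2 γH2AX libraries. An additional input library, made without antibody, came from WT mock cells. The labels do not say whether the 2 libraries of a group came from separate cultures, so their spread may be technical, nor how many knockout clones were used. The genotype rests on the labels, since region lists cannot check it.

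FANCL is the ubiquitin ligase of the Fanconi anaemia core complex, which modifies FANCD2 and FANCI when replication meets a DNA crosslink. PMA is a phorbol ester that activates protein kinase C and drives K562 cells towards a megakaryocyte-like state. The kinases ATM, ATR and DNA-PK phosphorylate H2AX on both sides of a lesion, so one lesion can spread the mark over a long stretch of chromatin. Because each library was made from a bulk culture, more cells with the mark and more mark per cell cannot be told apart.

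Members were all called γH2AX regions of chromosome 3 with a midpoint from 1 to 88.5 Mb on the short arm (3p) or from 95.5 to 197 Mb on the long arm (3q), in hg19 coordinates. The chromosome ends, the pericentromere and the fragile-site gene FHIT (59735036 to 61237133) were left out. This gave 11230 of 234983 regions over the 8 libraries, in 86.0 Mb of 3p and 101.5 Mb of 3q. The interior was selected on the covered length of chromosome 3, which was lower in KO than in WT libraries of these same data. Differences between genotypes are therefore given as a description, without a test. Genes were not placed in the windows and no sequence is shown, because the gene tables used here belong to another genome build.

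Depth ran from 15.6 to 27.2 M tags per library, and the threshold of the region caller lay between 5.89 and 7.69 tags per 10 M, lowest for the deepest library. KO libraries held 15.6 to 18.3 M tags and WT libraries 17.0 to 27.2 M, so depth and threshold moved with genotype and their part in the differences was not tested. Every region was called against the single WT mock input, so a change of copy number in KO or PMA cells is not corrected for. Covered length, the base pairs inside called regions, is the measure used throughout. A region was counted whole in the 1-Mb window that holds its midpoint.

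As a whole the interior was covered least in KO mock cells and most in WT cells treated with PMA. The covered length was 620.2 and 410.1 kb in the WT mock libraries, 377 and 371 kb in KO mock, 2548 and 1909 kb after PMA in WT, and 1054 and 788 kb after PMA in KO. Both WT libraries thus lay above both KO libraries within each treatment. The gap was narrow in mock cells, with means of 515 ± 149 kb in WT and 374 ± 4.20 kb in KO (SD, n = 2), and wide after PMA, with 2228 ± 453 kb and 921 ± 188 kb. The ratio of the WT to the KO mean was 1.38 in mock cells and 2.42 after PMA. In mock cells the direction depended on the calling threshold: when 1 tag threshold was applied to all libraries, the KO libraries were higher by 0.49 on the log2 scale. Mean tag density inside the regions, normalised to 10 M tags, was 14.7 and 15.2 tags per kb in WT mock, 17.2 and 18.0 in KO mock, 15.2 and 17.0 in WT PMA, and 17.0 and 17.5 in KO PMA. In mock cells the regions of KO libraries were thus denser in tags than those of WT libraries, and after PMA the groups overlapped. The caller's threshold had the same order in mock cells, at 6.26 and 6.42 tags per 10 M in WT and 7.30 and 7.69 in KO. After PMA it was 5.89 and 7.07 in WT and 7.12 and 7.50 in KO. A higher threshold admits only denser regions, and its part in these densities was not tested.

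Expressed as a share of all covered length of a library, the interior was lower in KO under both treatments. It held 6.44% and 5.01% in the WT mock libraries against 2.19% and 2.15% in KO mock. After PMA the shares were 8.13% and 7.70% in WT against 2.48% and 2.28% in KO. On 3p the mean share was 4.89% ± 0.717 in WT mock and 1.75% ± 0.0164 in KO mock, and 5.92% ± 0.00622 in WT PMA and 1.92% ± 0.111 in KO PMA (SD, n = 2). On 3q it was 0.835% ± 0.295, 0.417% ± 0.0171, 1.99% ± 0.302 and 0.463% ± 0.0269 in the same order. The KO share was thus 2.0 to 4.31 times smaller than the WT share, with the smallest ratio on 3q in mock cells and the largest on 3q after PMA. A share also moves with the rest of the genome: outside the interior the mean covered length was 8391 kb in WT mock, 16882 kb in KO mock, 25839 kb in WT PMA and 37593 kb in KO PMA. The denominator was thus larger in KO under both treatments, and on 3q in mock cells the shares differed where the lengths themselves overlapped.

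**Figure D1:**
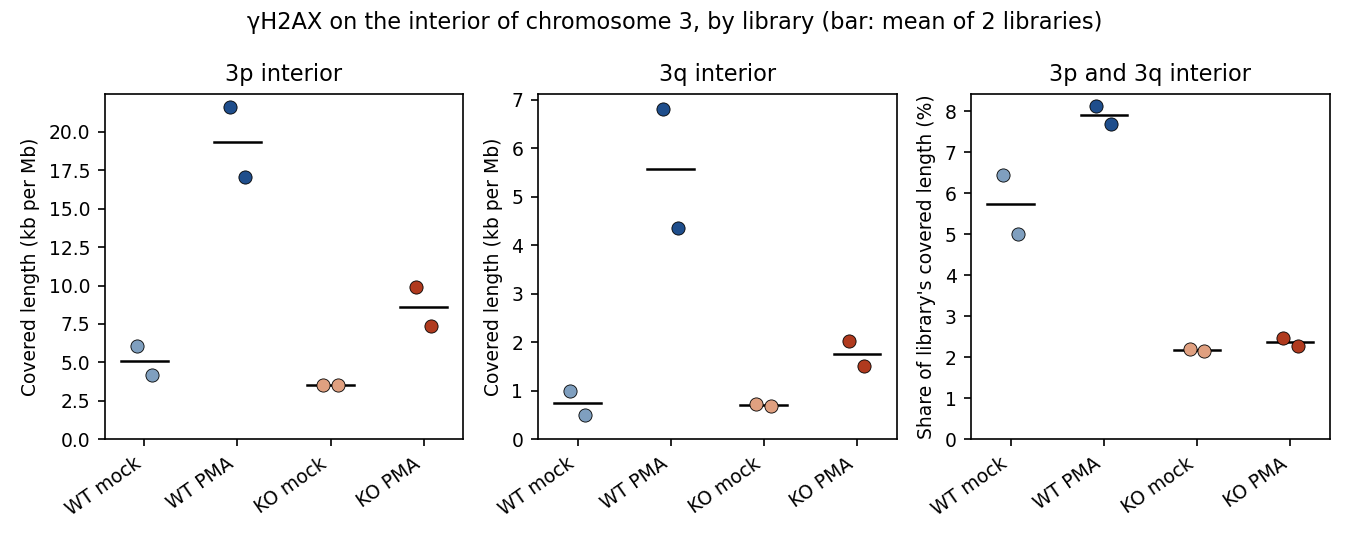
Covered length per Mb on the 3p interior (left) and 3q interior (centre), and the interior's share of each library's covered length in percent (right). Each point is 1 library and each bar the mean of a group's 2 libraries. WT PMA libraries were highest in all 3 panels, at 21.6 and 17.1 kb per Mb on 3p.

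The short arm carried most of the mark. Per Mb, the 3p interior held 5.11 ± 1.32 kb in WT mock, 3.52 ± 0.0182 kb in KO mock, 19.3 ± 3.20 kb in WT PMA and 8.63 ± 1.76 kb in KO PMA (SD, n = 2). The 3q interior held 0.748 ± 0.342, 0.709 ± 0.0260, 5.58 ± 1.74 and 1.76 ± 0.361 kb per Mb. The ratio of 3p to 3q per Mb was 6.11 and 8.26 in WT mock, 3.17 and 3.92 in WT PMA, 4.85 and 5.08 in KO mock, and 4.89 in both KO PMA libraries. In every library 3p was at least 3.17 times as densely covered as 3q. On 3q in mock cells the genotypes overlapped, at 100.5 and 51.3 kb in WT and 73.8 and 70.1 kb in KO.

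Much of the interior held no called region. Of 189 windows of 1 Mb, 58 had none in any of the 8 libraries, 28 of 87 on 3p and 30 of 102 on 3q. Another 16 windows were covered in 1 library, and 115 in at least 2, of which 54 lay on 3p and 61 on 3q. In all 8 libraries 44 windows were covered, 33 on 3p and 11 on 3q. Shares of windows that were empty or covered in all 8 libraries were not computed over the genome, so these counts are a description. The 10 most covered windows held between 45.0% and 58.4% of a library's interior length.

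Regions were short, near the 500 bp window of the caller. The median length was 500 bp in the interior of all 8 libraries. Regions of at least 1 kb made up 6.58% and 4.77% of members in WT mock, 3.57% and 6.95% in KO mock, 18.7% and 15.3% in WT PMA, and 14.3% and 11.0% in KO PMA. The WT PMA libraries had 12 and 6 regions of 5 kb or more, the KO PMA libraries 2 and 0, and the 4 mock libraries 0. Outside the interior the order of the PMA groups was the other way round, with 663 and 393 such regions in KO PMA against 70 and 36 in WT PMA.

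The 2 genotypes also differed in where along the arms the mark lay. To describe this, the windows were joined into stretches whose limits were set after the values were seen, so no test is given for them. From 3 to 9 Mb, near the end of 3p, WT libraries held 166 and 99.2 kb in mock and 408 and 319 kb after PMA. KO libraries held 13.8 and 7.27 kb there in mock and 28.7 and 28.0 kb after PMA. The WT mean was 12.6 times the KO mean in mock cells and 12.8 times after PMA, so KO cells held little of the mark there under either treatment. This stretch made up 25.7% of the interior's covered length in WT mock and 2.81% in KO mock.

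In the WT libraries 1 window carried most of that stretch. From 4 to 5 Mb the covered length was 111 and 77.2 kb in WT mock and 246 and 200.1 kb in WT PMA, against 6.13 and 4.27 kb in KO mock and 16.6 and 11.3 kb in KO PMA. It was the most covered window of the interior in each of the 4 WT libraries, with 17.9% and 18.8% of the interior length in mock and 9.67% and 10.5% after PMA. Within the window the mark was spread over 9 or 10 of its 10 bins of 100 kb in the WT libraries. The densest bin by the WT PMA mean, from 4.7 to 4.8 Mb, held 57.7 and 41.5 kb after PMA in WT and 1.73 and 2.0 kb after PMA in KO. The longest member of all, 14464 bp from 4721482 to 4735945, lay in that bin in a WT PMA library. The neighbouring window from 5 to 6 Mb held 28.9 and 13.4 kb in WT mock and 96.5 and 72.0 kb in WT PMA, against 2.64 and 2.0 kb in KO mock and 8.99 and 15.1 kb in KO PMA.

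From 16 to 46 Mb the same order of the genotypes was seen, less steeply in mock cells. The stretch held 234 and 146 kb in WT mock against 96.4 and 83.2 kb in KO mock. After PMA it held 849 and 618 kb in WT against 149 and 113 kb in KO. The WT mean was 2.11 times the KO mean in mock cells and 5.59 times after PMA. Its most covered window in WT, from 33 to 34 Mb, held 45.4 and 28.0 kb in WT mock and 169 and 128 kb in WT PMA. The KO libraries held 5.47 and 3.43 kb in that window in mock and 7.13 and 5.13 kb after PMA, so the WT PMA mean was 24.2 times the KO PMA mean.

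Between these stretches, from 9 to 16 Mb, the order of the genotypes depended on the treatment. The KO mock libraries held 102 and 107 kb and the WT mock libraries 70.4 and 69.3 kb, whereas WT PMA held 387 and 356 kb and KO PMA 273 and 192 kb. KO was thus above WT in mock cells and below it after PMA. The window from 14 to 15 Mb shows the pattern, with 6.0 and 7.44 kb in WT mock, 16.3 and 20.5 kb in KO mock, and after PMA 45.7 and 47.6 kb in WT against 37.3 and 33.3 kb in KO.

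From 46 to 54 Mb on 3p, KO cells held more of the mark than WT cells under both treatments. The KO libraries held 90.7 and 99.9 kb in mock and 390.2 and 297 kb after PMA, and the WT libraries 46.3 and 44.5 kb in mock and 180 and 156 kb after PMA. The KO mean was 2.10 times the WT mean in mock cells and 2.05 times after PMA. Both KO libraries lay above both WT libraries in 8 of the 8 windows in mock cells and in 6 of 8 after PMA. Of all windows of the genome, 42.9% had this order in mock cells and 22.5% after PMA. Because the limits of the stretch were set on these values, nothing is read from the counts. The stretch made up 37.3% of the interior's covered length in KO PMA and 7.52% in WT PMA.

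The windows of this stretch differed among themselves. From 47 to 48 Mb, the most covered window of the interior in each KO library, the groups were close, with 26.0 and 23.9 kb in WT mock, 35.7 and 29.1 kb in KO mock, and after PMA 124 and 101 kb in WT against 131 and 105 kb in KO. From 49 to 50 Mb they were far apart, with 87.0 and 54.7 kb in KO PMA against 3.63 and 4.37 kb in WT PMA. That KO signal lay mostly in the bins from 49 to 49.2 Mb and from 49.7 to 49.8 Mb. In the first of these bins the KO PMA libraries held 16.6 and 13.5 kb and the WT PMA libraries 0.5 and 1.39 kb. The window from 50 to 51 Mb held 52.7 and 36.2 kb in KO PMA against 2.63 and 3.74 kb in WT PMA, and the longest KO PMA member (8122 bp, 50274279 to 50282400) lay there.

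The remaining part of 3p, from 54 to 88.5 Mb, was nearly free of the mark. It held 2.0 and 0 kb in WT mock, 1.0 and 4.13 kb in KO mock, and after PMA 32.8 and 18.3 kb in WT against 7.93 and 5.65 kb in KO, over 34 windows. The adjoining 3q stretch from 95.5 to 126 Mb was as sparse, with 1.0 and 0.5 kb, 3.96 and 2.0 kb, 10.8 and 15.7 kb, and 3.13 and 5.15 kb in the same order of groups. Both flanks of the centromere thus held little in any library.

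On 3q a short stretch from 126 to 130 Mb stood higher in KO and the long stretch beyond it higher in WT. From 126 to 130 Mb the WT libraries held 1.5 and 2.67 kb in mock and 7.15 and 7.30 kb after PMA, and the KO libraries 17.7 and 22.3 kb in mock and 58.0 and 42.5 kb after PMA. The KO mean was 9.58 times the WT mean in mock cells and 6.96 times after PMA. Both KO libraries were above both WT libraries in 4 of 4 windows under both treatments. Of all windows of the genome, 42.9% had this order in mock cells and 22.5% after PMA. The limits of this stretch too were set on the values, so nothing is read from the count. From 130 to 183 Mb, WT held 64.0 and 27.1 kb in mock and 475 and 275 kb after PMA, against 13.7 and 12.3 kb and 31.3 and 26.4 kb in KO. There the WT mean was 3.51 times the KO mean in mock cells and 13.0 times after PMA. From 185 to 195 Mb the mock groups overlapped, at 10.7 and 7.29 kb in WT and 10.6 and 9.47 kb in KO, and after PMA WT held 115 and 74.1 kb against 13.3 and 8.86 kb in KO. The short stretches on both sides of the last one did not share its order. From 183 to 185 Mb the KO libraries were the higher ones in mock cells, at 13.7 and 9.94 kb against 5.5 and 1.5 kb in WT, and after PMA the groups overlapped, with a mean of 27.9 kb in KO and 33.1 kb in WT. From 195 to 197 Mb the groups overlapped under both treatments, at 17.8 and 12.3 kb in WT mock, 14.2 and 14.1 kb in KO mock, and with PMA 66.4 and 47.2 kb in KO next to 52.1 and 35.8 kb in WT.

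**Figure D2:**
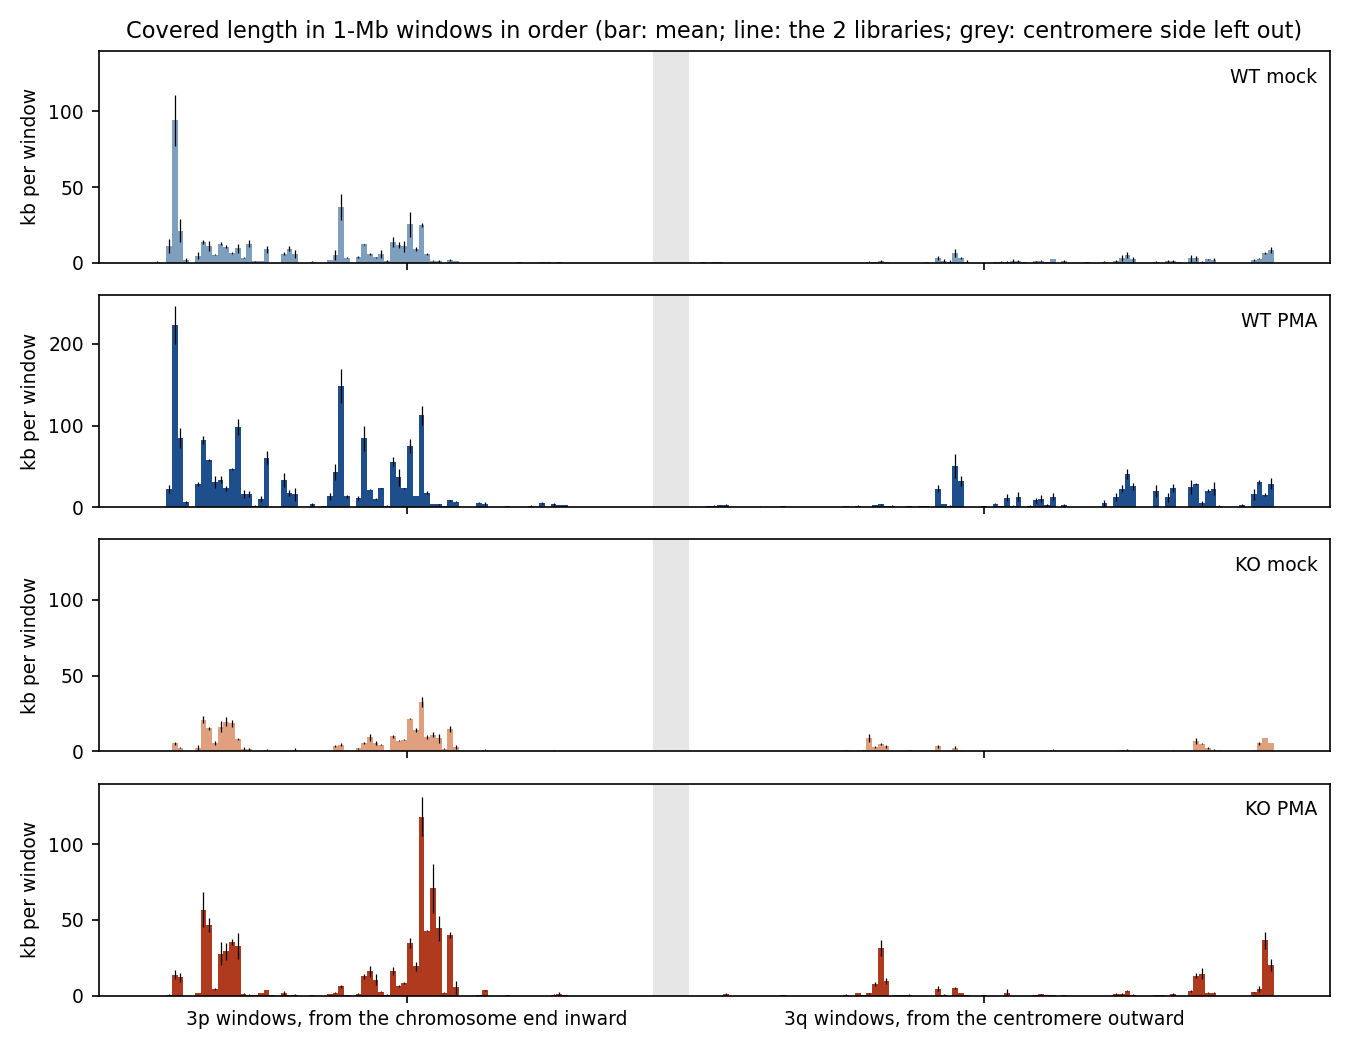
Mean covered length (kb) in each of the 189 windows of 1 Mb, in order along 3p and then 3q, for the 4 groups. Bars are means, vertical lines join the 2 libraries, the grey band marks the centromeric part that was left out, and the vertical scale of WT PMA differs from the other 3. The tallest WT window, 223 kb after PMA, lies near the 3p end, and the tallest KO window, 118 kb after PMA, lies further inward on 3p.

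The interior was chosen on these same values, under the label of a loss in knockout cells. Its lower KO total after PMA and its lower KO shares restate that choice and are no support for the label. Not all of its windows had that order. In mock cells the order of the totals depended on the calling threshold, and on 3q the mock lengths overlapped. Of the 115 windows covered in at least 2 libraries, both WT mock libraries lay above both KO mock libraries in 30, or 26.1%, where 13.4% of all windows of the genome did so. The opposite order, KO mock above WT mock, was seen in 23 windows, or 20.0%, where 42.9% of all windows did so. After PMA, WT lay above KO in 81 windows, or 70.4%, against 53.2% of all windows, and KO above WT in 13, or 11.3%, against 22.5%. Because this contrast chose the chromosome, nothing is read from the distance to the background. On 3p the count of windows with WT PMA above KO PMA was 39 of 54, and on 3q it was 42 of 61. Across the 131 windows with any region, the group means of WT and KO ranked windows alike only in part, with a Spearman correlation of 0.71 in mock cells and 0.73 after PMA. The 2 libraries of a group correlated at 0.79 to 0.94. The windows share library depth and caller settings, so these correlations are a description.

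**Figure D3:**
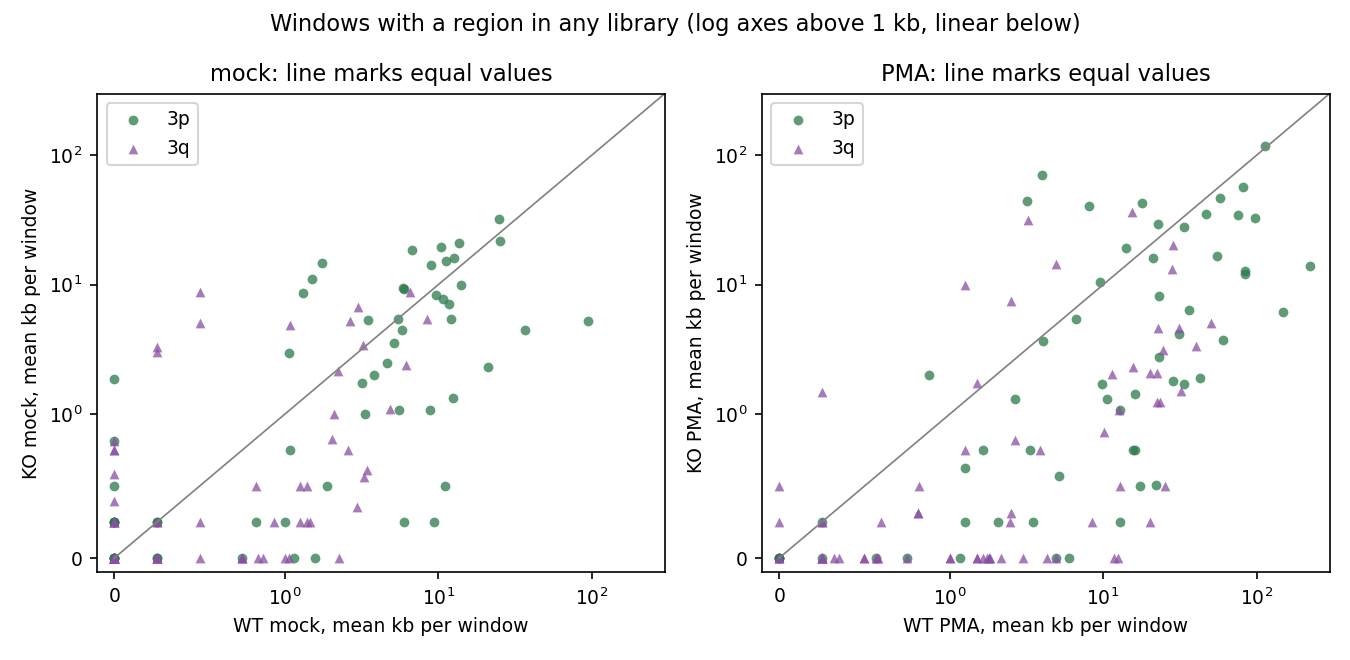
Mean covered length per window in KO (vertical) against WT (horizontal), in kb, for mock cells (left) and PMA (right), over the 131 windows with a region in any library. Axes are linear below 1 kb and logarithmic above, the line marks equal values, circles are 3p and triangles 3q. After PMA both libraries of WT lay above both of KO in 81 windows, and a group of 13 windows lay on the other side.

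Input tag density inside the called regions varied along the chromosome and between the genotypes. In the regions called in WT libraries it was 4.36 input tags per kb from 3 to 9 Mb, 3.89 from 16 to 46 Mb, 3.67 from 46 to 54 Mb and 1.99 from 54 to 88.5 Mb. On 3q it was 2.26 from 126 to 130 Mb and 2.71 from 130 to 183 Mb. In the regions of KO libraries the values were 3.96, 4.23, 4.13 and 2.80 on 3p and 2.93 and 3.46 on 3q, read from the same WT mock input. Input was thus lower in the sparse stretch of 3p than in the other 3p stretches named here in both genotypes, and its part in the pattern was not tested.

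After PMA the covered length of WT cells rose in most windows of the interior. Of the 115 windows tested with limma on log2(covered bp + 1000), 82 rose and 0 fell, at a Benjamini-Hochberg adjusted p of 0.05 over all 1935 windows of the genome. The share that rose was 71.3%, near the 65.4% of all windows, of which 1.86% fell, and the median difference of 1.5 on the log2 scale was next to the 1.51 of all windows. At an unadjusted p of 0.05 in limma, 87 windows were higher and 0 lower. On 3p 40 of 54 windows rose and on 3q 42 of 61. Because cover in 2 libraries admits a window, the PMA libraries of 1 genotype alone can admit it. Such a window can only rise in that genotype, and a window admitted by mock libraries alone can only fall. Among windows covered in at least 4 libraries, 73 of 92 were higher in WT, or 79.3% against 75.1% of all windows. In KO 17 of these 92 were higher, or 18.5% against 25.7%. The 4 PMA libraries alone can meet this filter too. When each library was centred on its median window, 5 windows of the interior were called higher, or 4.35%, where 8.99% of all windows were, and 29 lower, or 25.2%, where 30.7% were.

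On 3p the largest rises lay outside the most covered window. From 15 to 16 Mb the WT mock libraries held 12.5 and 6.66 kb and the WT PMA libraries 108 and 88.6 kb, a log2 difference of 3.28 (SE 0.36, limma adjusted p = 0.00136). From 32 to 33 Mb they held 8.25 and 2.0 kb against 52.5 and 32.8 kb, a difference of 3.01 (SE 0.56, limma adjusted p = 0.00541). Both PMA libraries were several times above both mock libraries in each of these windows. The windows from 37 to 38, 20 to 21 and 14 to 15 Mb followed, with differences of 2.68, 2.67 and 2.63. In KO cells the window from 32 to 33 Mb went from 4.13 and 3.0 kb in mock to 2.14 and 1.65 kb after PMA.

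On 3q the largest rises started from almost nothing. From 176 to 177 Mb the WT mock libraries held 1.0 and 0 kb and the WT PMA libraries 27.6 and 12.8 kb, a log2 difference of 3.81 (SE 0.55, limma adjusted p = 0.00242). From 179 to 180 Mb the values were 2.0 and 0.5 kb against 28.7 and 18.1 kb, a difference of 3.49 (SE 0.60, limma adjusted p = 0.00408). KO PMA libraries held 0.5 and 0 kb in the first of these windows and 2.0 and 0.5 kb in the second. The windows from 172 to 173, 194 to 195 and 183 to 184 Mb had differences of 3.25, 3.12 and 2.98. The 10 windows named here for their rise in WT all kept the call when any 1 of the 8 libraries was left out. The most covered 3q window of WT PMA, from 141 to 142 Mb, held 65.0 and 35.5 kb, against 8.79 and 3.5 kb in WT mock and 5.73 and 4.44 kb in KO PMA.

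In KO cells PMA raised the covered length of few windows. Of the same 115 windows 15 rose, or 13.0%, where 17.7% of all windows of the genome did, and 2 fell, or 1.74%, where 5.12% did (limma, adjusted p of 0.05). The median difference was 0.29 on the log2 scale, equal to that of all windows. In an otherwise empty window, 1 region of 500 bp in 1 of the 2 KO PMA libraries gives this value. The equality is therefore not read as likeness. By arm the median was 0.40 on 3p and 0.23 on 3q. On 3p 12 of 54 windows rose and on 3q 3 of 61. The count rested on each KO library: it was 5 and 4 without the first and second KO mock library, and 4 and 8 without the first and second KO PMA library. As shares of the windows then tested these were 3.48% to 7.08%, where 4.28% to 7.35% of all windows were called. The count was 6 of 93 with 1 tag threshold for all libraries, or 6.45% against 8.50% of all windows, and 1 of 103, or 0.971% against 1.91%, when regions under 6-fold over input were left out. Of the 12 KO windows that rose on 3p, 5 lay from 46 to 54 Mb and 4 from 9 to 16 Mb. In WT cells 4 windows rose in the first of these stretches and 7 in the second. The limits of both stretches were set after the values were seen, so nothing is read from their counts.

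The largest KO rise was from 49 to 50 Mb on 3p. The KO mock libraries held 9.20 and 12.8 kb there and the KO PMA libraries 87.0 and 54.7 kb, a log2 difference of 2.56 (SE 0.34, limma adjusted p = 0.00633). WT libraries held 2.0 and 1.0 kb in that window in mock and 3.63 and 4.37 kb after PMA. Both WT PMA libraries thus also lay above both WT mock libraries there, at a lower level. From 48 to 49 Mb the KO difference was 2.08 (SE 0.20, limma adjusted p = 0.00392), from 8.41 and 10.5 kb in mock to 42.8 and 43.1 kb after PMA. From 47 to 48 Mb it was 1.83 (SE 0.19, limma adjusted p = 0.00392). These calls held when any 1 library was left out.

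Other KO rises were less secure. The windows from 50 to 51 Mb (log2 2.28, limma adjusted p = 0.0244) and from 5 to 6 Mb (log2 1.94, limma adjusted p = 0.0256) lost the call without any 1 of the 4 KO libraries, with adjusted p up to 0.140 and 0.120. On 3q, the window from 128 to 129 Mb went from 5.80 and 3.96 kb in KO mock to 36.5 and 26.3 kb in KO PMA (log2 2.46, SE 0.38, limma adjusted p = 0.00898). Its call ended without the second KO mock library (adjusted p = 0.0645) or the first KO PMA library (adjusted p = 0.0704). At the outer end of 3q, the window from 195 to 196 Mb rose from 8.81 and 8.62 to 42.4 and 30.7 kb (log2 1.93, SE 0.24, limma adjusted p = 0.00568) and kept its call. The next window, from 196 to 197 Mb (log2 1.70, limma adjusted p = 0.0202), lost it without any 1 KO library, with adjusted p up to 0.118.

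A pair of 3q windows fell in KO cells. From 126 to 127 Mb the KO mock libraries held 6.28 and 11.4 kb and the KO PMA libraries 0.99 and 2.0 kb, a log2 difference of −1.96 (SE 0.50, limma adjusted p = 0.0400). Its KO mock signal lay mainly in the bin from 126.7 to 126.8 Mb, with 3.5 and 7.39 kb, where all 4 WT libraries were at 0. From 187 to 188 Mb the values were 1.0 and 0.633 kb in mock and 0 in both PMA libraries, a difference of −0.85 (SE 0.21, limma adjusted p = 0.0329). Both calls were fragile: each ended on leaving out any 1 of 6 of the 8 libraries, all 4 KO libraries among them, with adjusted p up to 0.189 and 0.144. The WT libraries whose absence ended a call were those of WT PMA for the first window (adjusted p = 0.0586 and 0.0585) and those of WT mock for the second (adjusted p = 0.0565 and 0.0562).

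Set side by side, 14 windows rose in both genotypes, 67 rose in WT and were not called in KO, 1 rose in WT and fell in KO, and 1 rose in KO and was not called in WT. These made 12.2%, 58.3%, 0.870% and 0.870% of the interior's windows, where they made 14.8%, 49.4%, 1.24% and 2.89% of all windows of the genome. Whether the genotypes responded differently was not tested, because that difference contains the contrast by which the chromosome was chosen.

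**Figure D4:**
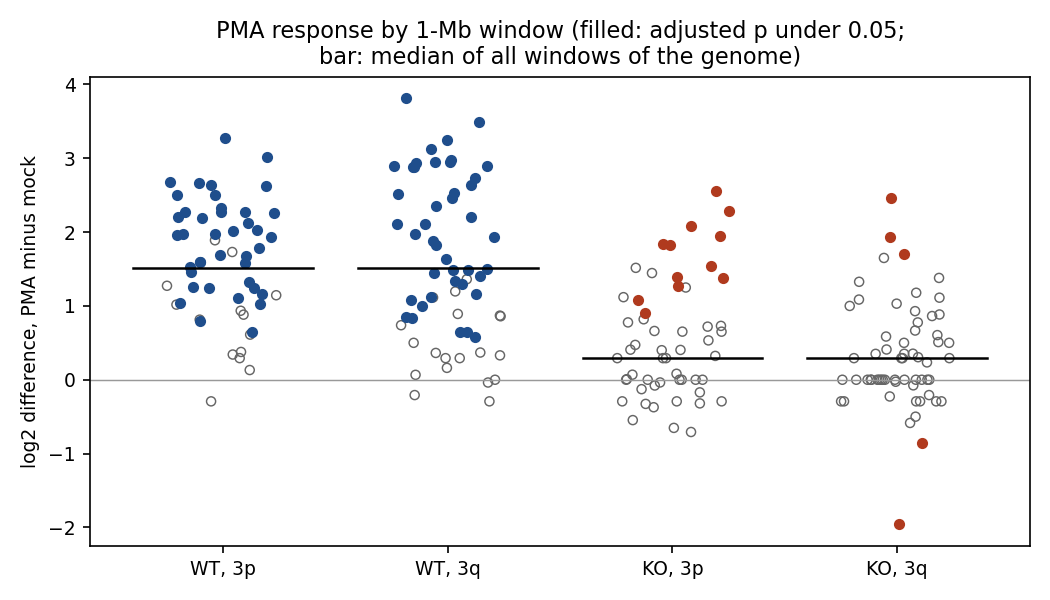
Difference between PMA and mock on the log2(covered bp + 1000) scale for each of the 115 tested windows, by genotype and arm. Each point is a window, filled where the limma adjusted p is under 0.05, spread sideways at random. Black bars are the medians of all windows of the genome, 1.51 in WT and 0.29 in KO. In WT 82 points are filled, all above 0, and in KO 17, of which 2 lie below 0.

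In total length the interior rose in both genotypes, although in KO most of its windows were not called. Covered length after PMA was 4.37 times that of mock in WT and 2.43 times in KO, as ratios of geometric means. Over both genotypes it was 3.26 times higher, with each PMA library above each mock library of its genotype (exact permutation p = 0.0556, two-sided, the smallest that 36 labellings allow). On 3p alone the ratio over both genotypes was 3.05 and on 3q 4.36, with the same p.

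As a share of the library, the 3q interior rose with PMA in WT cells. Its share went from 1.04% and 0.627% in the mock libraries to 2.21% and 1.78% in the PMA libraries, a log2 difference of 1.29 (SE 0.23, limma adjusted p = 0.000975 over 25 units, the chromosomes with chromosome 3 divided in 3). Of the 25 units, 20.0% rose and 32.0% fell in WT. In KO the 3q share was 0.429% and 0.405% in mock and 0.482% and 0.444% after PMA (log2 0.15, SE 0.23, limma adjusted p = 0.565), where 24.0% of the units rose and 36% fell. Leaving out any 1 library gave WT differences from 0.93 to 1.66 on 3q, each past the threshold.

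In the fit used throughout the 3p share was not called in either genotype. In WT it was 5.40% and 4.38% in mock and 5.92% in both PMA libraries (log2 0.28, SE 0.12, limma adjusted p = 0.0732), and in KO 1.76% and 1.74% in mock and 2.0% and 1.84% after PMA (log2 0.13, SE 0.12, limma adjusted p = 0.384). The WT value depended on the processing. Without the first WT mock library it was 0.43 (limma adjusted p = 0.00521), and it was also called with regions of at least 1000 bp (1.76), with 1 tag threshold (0.72), with equal region numbers (0.78) and with a replicate block (0.28, limma adjusted p = 0.0374). With regions under 6-fold over input left out it turned to −0.38 (limma adjusted p = 0.0102). In WT the ratio of 3p to 3q per Mb fell from 6.11 and 8.26 to 3.17 and 3.92 without overlap, and in KO the groups overlapped. Over both genotypes its log2 difference was −0.52 (exact permutation p = 0.167, two-sided, smallest possible 0.0556), and with the same number of regions taken from each library it was 0.22.

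Most single regions of a library were not found again in the other library of its group. In WT mock 12.3% of the regions of the first library overlapped a region of the second by at least 1 bp, in KO mock 16.1%, in WT PMA 31.4% and in KO PMA 26.0%. On 3q in WT mock it was 6 of 186 regions, or 3.23%. Merged over all libraries the members made 7299 loci, of which 5180, or 71.0%, were called in 1 library only. This was near the 67.6% of the 138300 loci of chromosomes 1 to 22 and X. The percentages shared between libraries were larger in the PMA groups than in the mock groups. The PMA lists were also longer, with 3126 and 2563 regions in WT and 1416 and 1167 in KO. The mock lists held 1018 and 692 in WT and 644 and 604 in KO. A longer list can overlap more by its length alone. Its part was not tested, and the percentages are not read as better repeatability.

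In all 8 libraries 4 loci were called, each on 3p. They lay from 12857054 to 12863366, 45972231 to 45973862, 47369678 to 47372736 and 47440773 to 47443261. The share of such loci over the genome was not computed, so nothing is read from their number. Loci called in all 4 WT libraries and in no KO library numbered 45, or 0.617% of the loci, where 0.153% of the 138300 loci of chromosomes 1 to 22 and X were of that kind. Those in all 4 KO libraries and in no WT library numbered 13, or 0.178%, where 1.09% were. The contrast between these genotypes chose the chromosome, so nothing is read from these shares. Of the 981 WT PMA regions found again in the second library, 9.68% were called in both KO PMA libraries and 71.5% in neither. Of the 368 such KO PMA regions, 24.7% were called in both WT PMA libraries and 50.3% in neither. Even within a group, 31.4% (WT PMA) and 26.0% (KO PMA) of the first library's regions overlapped one of the second. The same shares were not computed for the rest of the genome, so nothing is read from these overlaps either.

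The regions with the highest fold over input that were called in both libraries of a group were short, at most 742 bp. Fold here is the authors' ratio of a region's tags to input tags. The lowest input values in the files, 0.4 or 0.5, are below that of 1 input tag, which is listed at 0.8 to 1.0 by library. These values stand in for a region without any input tag, so a fold there is set by that floor and is not a measured ratio. In WT mock the regions with the highest fold lay from 4719023 to 4719522 (14.8- and 15.9-fold), from 33704989 to 33705616 (16.3- and 14.3-fold) and from 195963704 to 195964203 (10.9- and 13.5-fold). The first and second were also called in both WT PMA libraries and in no KO library. In KO mock the highest was 126716183 to 126716682 (15.7- and 17.9-fold), called in no other group, followed by 45072649 to 45073148 and 49755783 to 49756524. None of these 6 lay at the input floor, but most were only just above it. The input value was 1.0 in both libraries for each WT mock region. In KO mock it was 1.0 and 0.8 for the first region, 1.0 and 1.7 for the second, and 2.9 and 2.5 for the last. Except for the last, these folds thus rest on about 1 input tag in at least 1 library.

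After PMA most of the highest folds rested on that floor. In WT PMA the region from 23991111 to 23991610 stood 31.5- and 39.4-fold over input, followed by 69087545 to 69088044 (28.7- and 21.9-fold) and 150174848 to 150175347 (21.9- and 24.1-fold). All of these lay at the floor in both libraries and were called in the WT PMA libraries alone. In KO PMA the region from 127780873 to 127781372 stood 30.6- and 25.6-fold over input, followed by 195409636 to 195410135 (30.6- and 19.8-fold) and 49780549 to 49781048 (18.3- and 15.1-fold). The first lay at the floor in both libraries, the next in the first library, and the last in neither, and all were called in the KO PMA libraries alone. The tags themselves overlapped between treatments, with 5.85 to 12.8 per 10 M in the mock regions named and 5.89 to 10.6 in the PMA regions, so the higher folds after PMA are not read as a stronger signal.

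At 1 Mb and at the centromere the limits of the interior cut through little signal. Within 500 kb inside the 1-Mb limit the libraries held 0 to 1.5 kb and within 500 kb outside it 0 to 3.96 kb. Both sides of the centromeric limits held 0 to 0.5 kb inside and 0 outside. At 197 Mb the inner side held 3.0 to 21.0 kb and the outer side 1.0 to 13.4 kb. FHIT, a large gene at a common fragile site, held 0.5 kb in 1 WT mock library and 0 in the other 7.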

How the data were processed

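Regions of γH2AX in 8 ChIP-seq libraries were analysed as the authors deposited them. The tools that the submitters' processing notes name are CASAVA 1.4, BWA and HOMER, with the build hg19. Per the file headers, regions were called in each library separately against the WT mock input, from 500 bp windows at least 2-fold over input, with 1 tag per bp allowed. The deposited signal is a region's tags per 10 M, the deposited count its unscaled or input-scaled tags, the deposited ratio its fold over input, and the deposited score HOMER's own. Fold and score served only to describe, rank or filter regions. Counts served to estimate an input depth of 18.6 M tags. Input tags per kb were scaled to 10 M by it, or by a library's own depth where the input was listed on that scale. Depth came from the headers.

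Covered length per 1-Mb window was tested with limma 3.58.1 (R 4.3.3, mean-variance trend) on log2(covered bp + 1000), 8 libraries in 1 fit with 4 groups, over 1935 windows of chromosomes 1 to 22 and X covered in at least 2 libraries. Log2 differences on this scale understate changes of thinly covered windows, and the log2 percent per unit was tested alike. Tests were two-sided, at a Benjamini-Hochberg adjusted p of 0.05, and the procedure was tested on simulated data. Windows named are, per genotype and arm, the 5 with the largest change past the threshold in each direction, and the most covered ones (5 in WT PMA, 3 in KO PMA and WT mock). Regions named are the 3 with the highest lower fold of the 2 libraries in each group, and the longest. Members, stretches and lists were chosen with earlier results of these data known. Gene lists were not used here for want of an hg19 annotation. Alternatives tried were pseudocounts, coverage filters, centring, bin size, fold, length and tag thresholds, equal region numbers, cutting at window limits, a replicate block and leaving out each library. Other steps used Python 3.11.15.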

Additional observations from a re-analysis of the deposited data

Results flagged for a closer look

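In 5 windows both WT PMA libraries lay above both WT mock libraries while both KO PMA libraries lay below both KO mock libraries. These were 4.35% of the 115 windows, where 7.13% of all 1935 windows of the genome showed the same order. The difference between the genotypes was not tested. From 32 to 33 Mb the mean covered length was 37.5 kb higher after PMA in WT and differed by −1.67 kb in KO. From 34 to 35 Mb the differences were 9.67 and −0.75 kb, from 36 to 37 Mb 6.82 and −0.69 kb, and from 40 to 41 Mb 17.4 and −1.72 kb. On 3q, from 187 to 188 Mb, they were 1.76 and −0.82 kb. The KO differences are near the length of a few regions of 500 bp.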

How the results depend on the processing

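The cause of the changes below was not tested, except that centring, longer or stronger regions and equal region numbers change by construction what is counted. WT windows higher after PMA numbered 82 of 115, or 71.3% against 65.4% of all windows. After centring they were 5 of 115 (29 lower), or 4.35% against 8.99%. With bins of 100 kb they were 206 of 541 (6 lower), or 38.1% against 31.9%. With only regions 6-fold or more over input they were 43 of 103 (1 lower), or 41.7% against 45.4%. With regions of at least 1000 bp they were 45 of 62, or 72.6% against 59.7%. With equal region numbers per library they were 13 of 83 (2 lower), or 15.7% against 12.3%. The number of windows tested thus moved these counts too. KO windows higher numbered 15 of 115, or 13.0% against 17.7% of all windows. They were 52 of 541 with bins of 100 kb (9.61% against 13.1%) and 1 of 103 at 6-fold (0.971% against 1.91%). With 1 tag threshold they were 6 of 93 (6.45% against 8.50%), and with equal numbers 3 of 83 (3.61% against 5.33%). KO windows lower numbered 2 of 115, or 1.74% against 5.12%. They were 11 of 541 with bins of 100 kb (2.03% against 5.31%). There was 1 each with pseudocounts of 100 and 5000 bp, in windows covered in at least 4 libraries, at 6-fold and with the replicate block. These were 0.870% to 1.09%, against 0.732% to 5.27% of all windows. There were 0 with regions of at least 1000 bp, 1 tag threshold or equal numbers, against 1.36% to 5.53%. Leaving out 1 library gave 56 to 82 higher in WT, and 4 to 17 higher and 0 to 1 lower in KO.

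The WT 3p share (log2 0.28) was −0.38 at 6-fold, 1.76 with regions of at least 1000 bp, 0.72 with 1 threshold and 0.78 with equal numbers, each past the threshold. With the replicate block it was 0.28 and past it (limma adjusted p = 0.0374). Leaving out 1 library gave 0.13 to 0.43. The KO 3p share was 0.33 at 6-fold, −0.018 with 1 threshold and −0.12 with equal numbers, and the KO 3q share −0.38 with equal numbers. The log2 ratio of 3p to 3q was 0.22 with equal numbers, 0.17 in WT and 0.26 in KO. Without 1 library the KO ratio ran from −0.053 to 0.011.

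KO against WT kept its sign in shares throughout. The 3p share in mock cells was −1.27 at 6-fold, −1.80 with regions of at least 1000 bp and −1.72 with equal numbers. After PMA it was −0.55, −2.92 and −2.62, and −2.22 with 1 threshold. The 3q share in mock cells was −0.27 with 1 threshold and −1.64 with equal numbers, and after PMA −1.51 at 6-fold, −2.80 with regions of at least 1000 bp, −1.85 with 1 threshold and −2.62 with equal numbers. Covered length in mock cells was −0.82 at 6-fold, 0.49 with 1 threshold and −1.53 with equal numbers, and after PMA −1.63 with regions of at least 1000 bp, −0.89 with 1 threshold and −1.97 with equal numbers.

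Same-numbered libraries deviated together with a correlation of 0.26 in WT and −0.01 in KO over 1935 windows. The labels name no source of pairing, so the replicate block stayed an alternative, which gave 83 WT windows higher. None of the 20 named windows tested changed sign under any alternative run, but calls were lost: 10 of 19 with equal numbers, 9 of 20 at 6-fold, 6 with 1 threshold, 5 after centring, 3 of 17 with regions of at least 1000 bp, 3 and 1 with pseudocounts of 100 and 5000 bp, 1 each in windows covered in at least 4 libraries and with the block, and 1 to 6 on leaving out 1 library. Replicates are 2 per group, which limits every spread, and thin windows of 500 to 1000 bp rest on 1 or 2 regions.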
